A study of Mus musculus with 10 samples.

Results

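Glucose is taken into a heart muscle cell by facilitative transporters, phosphorylated by hexokinase and then committed to glycolysis by phosphofructokinase. This account covers 8 mouse genes of these first steps: the transporters Slc2a1 (GLUT1) and Slc2a4 (GLUT4), the hexokinases Hk1 and Hk2, the phosphofructokinase subunits Pfkp, Pfkm and Pfkl, and the muscle fructose bisphosphatase Fbp2. They were taken by name, with every probe set that carried one of these symbols and no other. This gave 14 probe sets of 22626 tested, and 8 genes of 12393. Slc2a1 had 3 probe sets, Slc2a4, Hk1, Pfkp and Pfkl had 2 each, and Hk2, Pfkm and Fbp2 had 1 each. One further Hk1 probe set, shared with Rpl17 and other symbols, was left out. Levels of different probe sets are not comparable with each other, so a gene is compared only with itself across arrays.

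RNA came from mouse ventricles, the lower chambers of the heart, of 2 transgenic lines named alpha-TM180 and alpha-TM175 and of nontransgenic controls (NTG). Alpha-tropomyosin runs along the thin filament and gates the access of myosin to actin. The series concerns an early stage of severe and mild cardiac hypertrophy; from background knowledge TM180 is the severe and TM175 the mild line. There were 4 TM180, 3 TM175 and 3 NTG arrays, untreated throughout. In each genotype 1 array carried RNA pooled from 20 hearts and the others carried 1 heart each. The age, strain and sex of the mice, the promoter of the transgene and the number of founder lines are not given in the sources used here, nor whether a pool held the hearts measured alone.

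Array medians ran from 66.6 to 71.0 intensity units, and Pearson's r between any 2 arrays was 0.964 to 0.995 over probe sets. Principal component 1 (47.4% of the variance) set the 3 pools (30.11 to 39.78) apart from the 7 single hearts (-31.58 to 2.65). Extract type, pool or single heart, was therefore also entered as a second term in the model, and both fits are given. TM175 array 1 stood apart in sex-linked genes: Xist read 988 there, against 99.5 to 136 in the other single hearts, and the Y-linked Eif2s3y read 7.23, against 44.7 to 60.8. Calls that turn on it, and some of the TM175 differences from NTG that it moved, are also given without it. The pools differed in these genes too. Xist read 414 in the TM175 pool, 394 in the TM180 pool and 149 in the NTG pool, and Eif2s3y read 38.3, 35.3 and 46.7. Leaving out TM175 array 1 does not remove that difference, and its part in the results was not tested. The ventricular light chain Myl2 averaged 10360 ± 434 in TM180 and 10390 ± 106 in NTG arrays (SD, n = 4 and 3), so the defining ventricular marker was present.

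As background, the paired isoforms divide by developmental stage. GLUT1 and hexokinase 1 predominate in the fetal heart, and the platelet type phosphofructokinase Pfkp belongs with them here. The adult heart relies on GLUT4, which insulin and contraction bring to the cell surface, on hexokinase 2, and on the muscle type phosphofructokinase Pfkm. Pfkl is the liver type subunit. Fructose bisphosphatase runs the phosphofructokinase step backwards, and Fbp2 is its muscle isozyme. A return towards fetal isoforms is a textbook feature of the hypertrophied heart.

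In TM180 ventricles Hk1 rose and Fbp2 fell relative to NTG, and Pfkp rose once extract type was in the model. Hk1 (probe set 1437974_a_at) was 1.35-fold higher and Fbp2 1.99-fold lower. Pfkp (1416069_at) was 1.83-fold higher. No member passed the test in TM175 against NTG or in TM180 against TM175. A call here is an adjusted p under 0.05 in limma, adjusted by Benjamini-Hochberg over all 22626 probe sets. In TM180 against NTG 2 of 14 member probe sets (14.3%) were called, beside 0.504% of all probe sets. Hk1 was the 1 higher and Fbp2 the 1 lower, beside 0.371% and 0.133%. With extract type the count was 3 of 14 (21.4%), beside 2.01%, with 2 higher (1.47% of all) and 1 lower (0.539%). An unadjusted p under 0.05 was reached by 4 of 14, beside 9.34%. In TM175 against NTG 0 of 14 were called in either fit, beside 0.00884% of all probe sets without and 0.862% with extract type; 4 of 14 had an unadjusted p under 0.05, beside 13.0%. Between the lines 0 of 14 were called in either fit, beside 0.0% and 0.0265% of all probe sets, and 3 of 14 had an unadjusted p under 0.05, beside 13.3%. The comparisons of TM180 and of TM175 with NTG share the NTG arrays and are not independent.

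**Figure D1:**
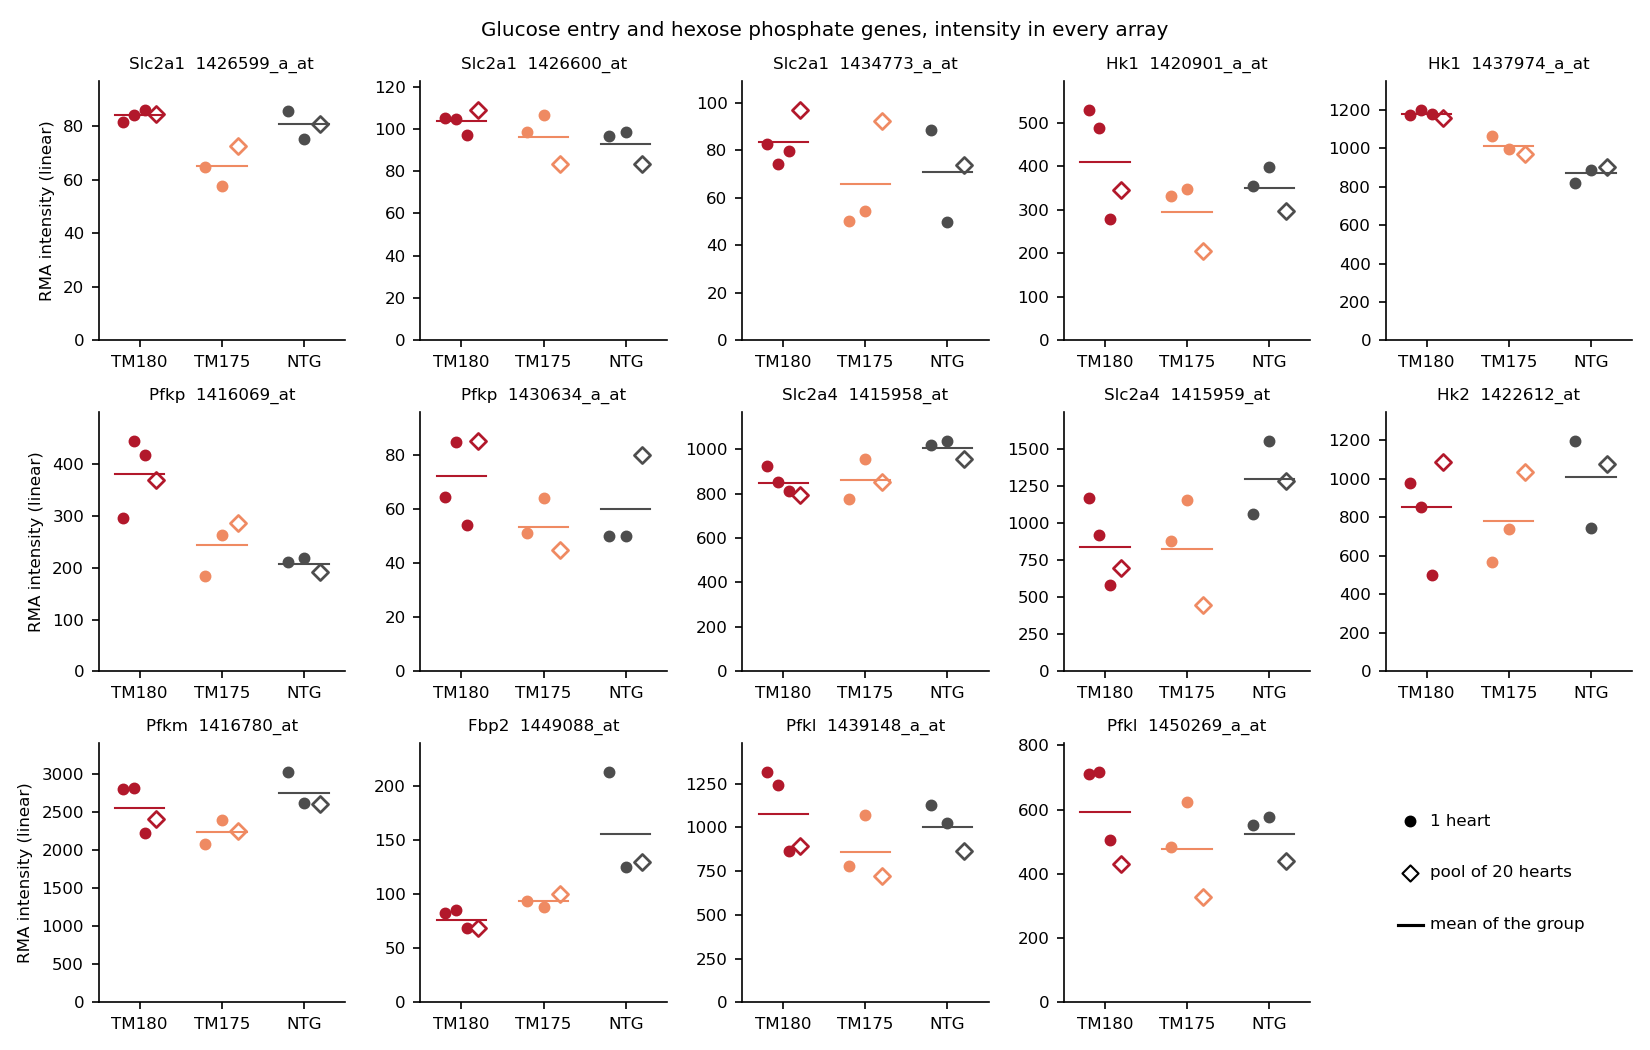
Linear RMA intensity of all 14 member probe sets in every array, with TM180, TM175 and NTG from left to right, filled circles for 1 heart, open diamonds for a pool of 20 hearts and a line at each group mean. All 4 TM180 arrays stand above all NTG arrays for Hk1 1437974_a_at and Pfkp 1416069_at and below them for Fbp2 and Slc2a4 1415958_at.

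The promoters of the 3 genes called in TM180 are shown because their transcripts moved. Each window, from RefSeq on GRCm38.p6, runs from 250 bases before to 50 bases after an annotated start and is written 5′ to 3′ on the gene's own strand. Motifs were searched on both strands and are in capitals (3 in all): CACGTG (the E-box bound by MYC, USF and ChREBP-MLX family proteins), ACGTG (the core of the hypoxia response element, which also lies inside CACGTG) and GGGCGG (the GC box bound by Sp family proteins, CCGCCC when read from the other strand). A match describes the letters of the window and is not evidence of binding.
Fbp2, chr13:62858351-62858650, minus strand: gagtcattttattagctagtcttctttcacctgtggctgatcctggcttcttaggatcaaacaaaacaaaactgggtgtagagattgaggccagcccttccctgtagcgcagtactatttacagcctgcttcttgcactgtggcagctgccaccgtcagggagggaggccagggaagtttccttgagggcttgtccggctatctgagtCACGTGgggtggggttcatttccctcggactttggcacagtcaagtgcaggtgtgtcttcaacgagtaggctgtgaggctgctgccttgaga
Hk1 first listed start, chr10:62379859-62380158, minus strand: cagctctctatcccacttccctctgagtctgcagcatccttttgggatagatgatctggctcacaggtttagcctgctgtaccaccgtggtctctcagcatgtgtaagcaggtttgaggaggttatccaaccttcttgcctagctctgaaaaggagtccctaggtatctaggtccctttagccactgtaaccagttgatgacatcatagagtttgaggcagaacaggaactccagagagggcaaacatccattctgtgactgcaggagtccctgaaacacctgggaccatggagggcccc
Hk1 second listed start, chr10:62340372-62340671, minus strand: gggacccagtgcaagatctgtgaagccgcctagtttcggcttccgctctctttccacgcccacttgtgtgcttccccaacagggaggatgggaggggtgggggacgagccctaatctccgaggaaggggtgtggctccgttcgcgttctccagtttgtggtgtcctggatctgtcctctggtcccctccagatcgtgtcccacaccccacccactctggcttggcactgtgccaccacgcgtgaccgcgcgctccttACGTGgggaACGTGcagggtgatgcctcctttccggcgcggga
Pfkp, chr13:6648722-6649021, minus strand: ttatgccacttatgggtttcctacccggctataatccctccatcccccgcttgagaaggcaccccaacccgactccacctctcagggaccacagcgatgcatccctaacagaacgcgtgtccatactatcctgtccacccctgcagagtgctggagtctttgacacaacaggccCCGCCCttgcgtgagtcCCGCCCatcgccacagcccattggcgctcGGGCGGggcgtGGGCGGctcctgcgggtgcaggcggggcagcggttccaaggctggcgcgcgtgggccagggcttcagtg
The Fbp2 window held CACGTG beginning 42 bases before the start. The first Hk1 window held none of the 3 motifs, and the second held ACGTG beginning 7 and 16 bases after the start. The Pfkp window held the GC box beginning 76, 59, 30 and 19 bases before the start and no E-box. Of 32851 windows of 300 bases in the RefSeq table, 7.15% held CACGTG, 19.6% ACGTG and 35.7% GGGCGG. Windows were listed for 7 of the 8 members.

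GLUT1, encoded by Slc2a1 (chr4:119108745-119137330, plus strand), carries basal glucose uptake. Its probe set 1426599_a_at read 81.6, 84.2, 85.9 and 84.5 in TM180, 64.9, 57.6 and 72.4 in TM175, and 85.8, 75.3 and 80.8 in NTG arrays. All TM175 arrays lay below all NTG and all TM180 arrays, while TM180 and NTG overlapped. TM175 was 0.803-fold NTG (95% interval 0.686 to 0.940), which did not pass (limma adjusted p 0.254, with extract type 0.114). TM180 was 1.04-fold NTG (0.901 to 1.21; adjusted p 0.984).
The second probe set, 1426600_at, averaged 103.9 ± 4.96 in TM180, 96.08 ± 11.7 in TM175 and 92.76 ± 8.36 in NTG arrays (SD, n = 4, 3 and 3), and the third, 1434773_a_at, ran from 74.2 to 96.8 in TM180, 50.1 to 92.5 in TM175 and 49.6 to 88.6 in NTG. Neither separated the groups, and in TM175 the sign of their difference from NTG was not the same (0.05 and -0.12 on the log2 scale). With extract type in the model and TM175 array 1 left out, these differences were 0.05 and -0.01. The 3 Slc2a1 probe sets thus disagreed in TM175, where only 1426599_a_at had non-overlapping arrays.

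GLUT4, encoded by Slc2a4 (chr11:69942286-69948216, minus strand), is the insulin-responsive transporter of heart, skeletal muscle and fat. Probe set 1415958_at read 925, 851, 812 and 793 in TM180, 775, 955 and 850 in TM175, and 1018, 1035 and 957 in NTG arrays. Every array of either line lay below every NTG array, the nearest being 955 in TM175 and 957 in NTG. The ratio to NTG was 0.841 in TM180 (95% interval 0.724 to 0.978; limma adjusted p 0.427) and 0.855 in TM175 (0.728 to 1.00; adjusted p 0.390), neither passing, also with extract type (0.221 for TM180). Without TM175 array 1 the TM175 difference on the log2 scale was -0.15, against -0.23 with it.
The other Slc2a4 probe set, 1415959_at, read 1169, 918, 584 and 701 in TM180, 879, 1157 and 449 in TM175, and 1061, 1553 and 1284 in NTG arrays. One single heart of each line overlapped the lowest NTG heart, and the lowest TM175 value was the pool. Its ratio to NTG was 0.634 in TM180 (0.392 to 1.03; adjusted p 0.573) and 0.600 in TM175 (0.358 to 1.00; adjusted p 0.386). The TM175 difference on the log2 scale, -0.74, was -0.35 among single hearts and -1.52 between the pools, and without the TM175 pool it was -0.35. Both probe sets were lower on average in both lines, but no Slc2a4 difference passed the test. In adipocytes GLUT4 is also abundant; of 10 adipocyte markers 7 were measured, none was called or had an unadjusted limma p under 0.05, and their summed intensity was 8399 to 9502 in TM180, 9406 to 9611 in TM175 and 9199 to 9836 in NTG arrays. Such a sum follows its brightest genes, as the lowest reading in the list was 12.1, and the share of fat was not tested.

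Hexokinase 1, encoded by Hk1 (chr10:62268855-62379920, minus strand), is the constitutive hexokinase of most tissues and binds the outer mitochondrial membrane. Probe set 1437974_a_at read 1172, 1198, 1176 and 1160 in TM180, 1062, 995 and 972 in TM175, and 820, 889 and 905 in NTG arrays. The groups formed 3 steps with no overlap, TM180 highest and NTG lowest, and the spread within TM180 was small (1176 ± 15.9, SD, n = 4). TM180 was 1.35-fold NTG (95% interval 1.2 to 1.53; limma adjusted p 0.0487, with extract type 0.0179). The difference on the log2 scale was 0.47 among single hearts and 0.36 between pools.
TM175 was 1.16-fold NTG (1.02 to 1.32; adjusted p 0.342, with extract type 0.184). TM180 was 1.17-fold TM175 (1.03 to 1.32; adjusted p 0.329). Neither step passed on its own. The TM180 call stood close to the threshold: it was lost when any 1 of the 10 arrays was left out, with an adjusted p of 0.0515 to 0.193, and was also lost under several settings listed in the closing section. With extract type in the model and TM175 array 1 left out it was 0.0193.
The other Hk1 probe set, 1420901_a_at, read 528, 487, 278 and 346 in TM180, 331, 348 and 204 in TM175, and 353, 397 and 298 in NTG arrays, and overlapped between all groups. Its TM180 ratio to NTG was 1.14 (0.785 to 1.66; adjusted p 0.971), an interval that includes the value of the first probe set. The left-out probe set shared with Rpl17 averaged 942.1 ± 45.3 in TM180, 883 ± 179 in TM175 and 895.9 ± 166 in NTG arrays.

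Hexokinase 2, encoded by Hk2 (chr6:82725025-82774454, minus strand), is the insulin-regulated hexokinase of muscle. Its probe set 1422612_at read 976, 855, 501 and 1087 in TM180, 568, 741 and 1033 in TM175, and 1194, 746 and 1078 in NTG arrays. Each group spread widely and all overlapped. The ratio to NTG was 0.832 in TM180 (95% interval 0.540 to 1.28; limma adjusted p 0.948) and 0.768 in TM175 (0.484 to 1.22; adjusted p 0.606). These intervals leave room for a fall or a rise, so no difference was detectable with these arrays. The TM175 difference on the log2 scale was -0.38, and -0.17 without TM175 array 1.

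Phosphofructokinase adds the second phosphate and is the main control point of glycolysis. Pfkp (chr13:6579874-6649060, minus strand) encodes the platelet type subunit. Probe set 1416069_at read 295, 443, 417 and 369 in TM180, 184, 263 and 286 in TM175, and 210, 219 and 191 in NTG arrays. Every TM180 array exceeded every TM175 and NTG array, whereas TM175 and NTG overlapped. TM180 was 1.83-fold NTG (95% interval 1.40 to 2.38). The test missed the threshold without extract type (limma adjusted p 0.0608) and passed with it (0.0187, and 0.00805 when TM175 array 1 was also left out). The log2 difference was 0.82 among single hearts and 0.95 between the pools. Without extract type, leaving out 1 array gave an adjusted p of 0.0333 to 0.223; it passed in 2 of 10 such fits, without TM180 array 1 (0.0333) and without TM175 array 1 (0.04).
TM175 was 1.16-fold NTG for this probe set (0.878 to 1.54; adjusted p 0.626). Single arrays decided its size: the log2 difference was 0.22, but 0.41 without TM175 array 1 and 0.09 without the TM175 pool. TM180 was 1.57-fold TM175 (1.21 to 2.04), which did not pass (adjusted p 0.302, with extract type 0.0797). The second Pfkp probe set, 1430634_a_at, was dimmer and read 64.5, 84.8, 54.1 and 85.1 in TM180, 51.1, 64.3 and 44.7 in TM175, and 49.95, 50.2 and 80.1 in NTG arrays. It overlapped between all groups, and its TM180 ratio to NTG was 1.21 (0.870 to 1.68, limma adjusted p 0.866). This interval overlaps that of the first probe set (1.40 to 2.38). The estimates were 1.21 and 1.83, and whether the Pfkp probe sets differed in the size of the difference was not tested.

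Pfkm (chr15:98092589-98132447, plus strand) encodes the muscle type subunit. Its probe set 1416780_at read 2804, 2814, 2224 and 2408 in TM180, 2081, 2402 and 2257 in TM175, and 3026, 2623 and 2611 in NTG arrays. All TM175 arrays lay below all NTG arrays, and TM180 arrays overlapped both groups. TM175 was 0.817-fold NTG (95% interval 0.680 to 0.981; limma adjusted p 0.348, with extract type 0.175) and TM180 was 0.928-fold NTG (0.782 to 1.1; adjusted p 0.944). Neither passed.
Pfkl (chr10:77986947-78009807, minus strand) encodes the liver type subunit. Its 2 probe sets averaged 1079 ± 234 (1439148_a_at) and ran from 431 to 716 (1450269_a_at) in TM180, against 858.3 ± 188 and 329 to 623 in TM175 and 1005 ± 132 and 440 to 577 in NTG arrays (SD, n = 4, 3 and 3). The groups overlapped for both, and no comparison of genotypes was called. Pfkl 1450269_a_at was the only member probe set called between pools and single hearts, beside 22.2% of all probe sets. It was lower in pools, with a log2 difference of -0.55 (limma adjusted p 0.0102). Others differed by nearly as much without passing: Slc2a4 1415959_at by -0.48 (adjusted p 0.154), Hk2 by 0.47 (0.11), Hk1 1420901_a_at by -0.44 (0.0849) and Slc2a1 1434773_a_at by 0.42 (0.0798).

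Fbp2 (chr13:62836884-62858400, minus strand) encodes the muscle isozyme that hydrolyses fructose 1,6-bisphosphate and so opposes phosphofructokinase. Its single probe set 1449088_at read 82.1, 85.6, 68.4 and 68.9 in TM180, 93.3, 88.4 and 100.4 in TM175, and 212.5, 125.1 and 129.4 in NTG arrays. The order was TM180 below TM175 below NTG with no overlap at either step, and the first NTG heart was well above the other NTG arrays. TM180 was 0.503-fold NTG, that is 1.99-fold lower (95% interval 0.384 to 0.657; limma adjusted p 0.0408, with extract type 0.0099, and 0.0126 with TM175 array 1 also left out). The log2 difference was -1.06 among single hearts and -0.91 between the pools.
TM175 was 0.622-fold NTG (0.467 to 0.829), which did not pass (adjusted p 0.205, with extract type 0.0734, and 0.163 with TM175 array 1 also left out). TM180 was 0.808-fold TM175 (0.618 to 1.06; adjusted p 0.443). As with Hk1, the TM180 call was lost in each of the 10 fits that left out 1 array, with adjusted p from 0.0509 to 0.113, while the direction stayed. Without the high first NTG heart the log2 difference from NTG was -0.75 in TM180 (adjusted p 0.0764), against -0.99 with it, and -0.44 in TM175 (adjusted p 0.577), against -0.68. Skeletal muscle is rich in Fbp2; of 12 skeletal muscle markers 11 were measured, and in limma 0 were called and 0 had an unadjusted p under 0.05 in TM180 against NTG. Their summed intensity was 424 to 503 in TM180, 499 to 542 in TM175 and 467 to 500 in NTG arrays, with the fast myosin gene Myh4 near the floor (8.756 ± 0.532 in TM180 and 8.532 ± 0.912 in NTG).

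**Figure D2:**
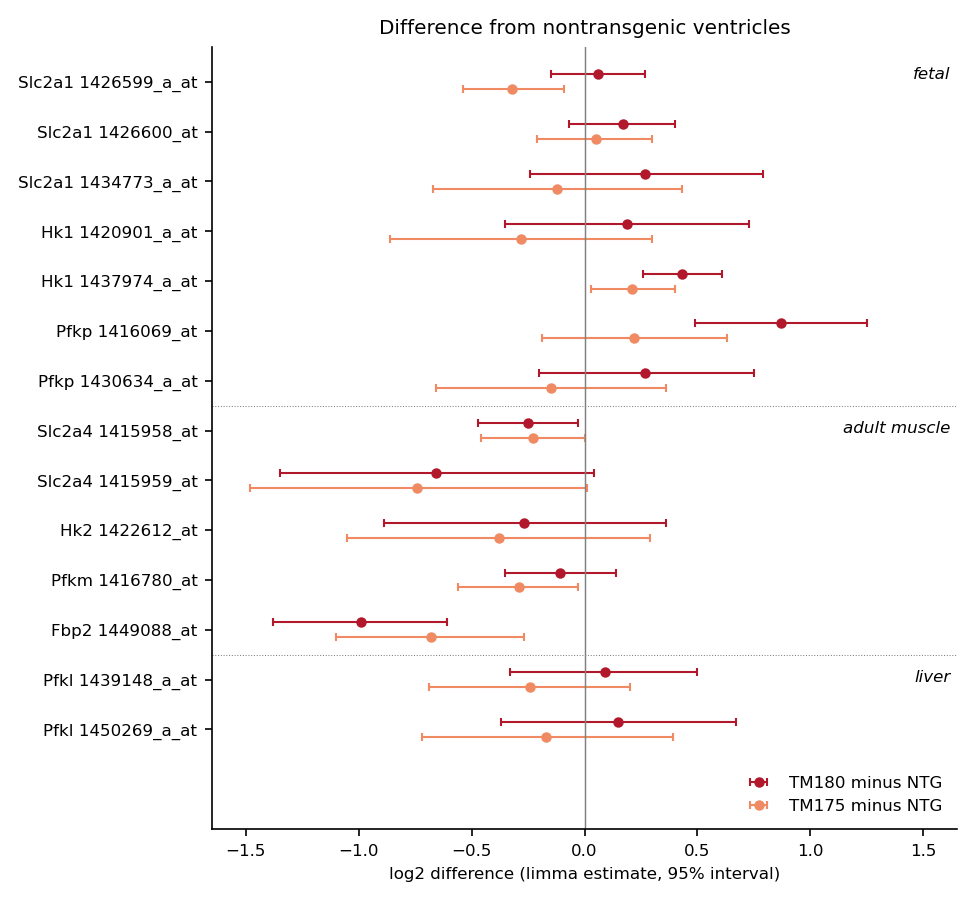
Log2 difference from NTG of each member probe set in TM180 and TM175, as limma estimates with 95% intervals from the fit without extract type, ordered as fetal, adult muscle and liver isoforms. The TM180 intervals of Hk1 1437974_a_at (0.43), Pfkp 1416069_at (0.87) and Fbp2 (-0.99) lie farthest from 0 relative to their width, and the Hk2 intervals span 0 in both lines.

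Counted by overlap, 2 of 14 member probe sets lay wholly higher and 2 wholly lower in TM180 than in NTG arrays, beside 5.98% and 4.19% of all probe sets. In TM175 1 lay wholly higher and 4 wholly lower than NTG, beside 8.42% and 8.11%. The 4 lower ones were Slc2a1 1426599_a_at, Slc2a4 1415958_at, Pfkm and Fbp2. Of the TM180 arrays against the TM175 arrays, 3 probe sets were wholly higher (Slc2a1 1426599_a_at, Hk1 1437974_a_at and Pfkp 1416069_at) and 1 wholly lower (Fbp2), beside 6.22% and 7.37%. The median log2 difference from NTG over the 14 probe sets was 0.12 in TM180 and -0.23 in TM175, against medians over all probe sets of -0.01 and 0.04.

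The isoform contrast was read within each array as the mean log2 intensity of Slc2a1, Hk1 and Pfkp minus that of Slc2a4, Hk2, Pfkm and Fbp2, with the brightest probe set of each gene. Its zero point has no meaning, since the probe sets differ, so it was compared only between groups, as a description and without a test. It was -1.11, -0.79, -0.34 and -0.73 in TM180, -1.06, -1.11 and -1.0 in TM175, and -1.9, -1.55 and -1.77 in NTG arrays. Every array of either line lay above every NTG array, and the lines overlapped each other. The difference from NTG on the log2 scale was 1.00 in TM180 (0.98 among single hearts, 1.04 between pools) and 0.68 in TM175 (0.64 and 0.77).
The sides contributed unequally in TM175 and by similar amounts in TM180. The mean of the fetal isoforms was 8.48 ± 0.08 in TM180, 8.15 ± 0.09 in TM175 and 7.99 ± 0.07 in NTG arrays (log2, SD, n = 4, 3 and 3), with no overlap between any groups. The mean of the adult isoforms was 9.23 ± 0.28 in TM180, 9.21 ± 0.12 in TM175 and 9.73 ± 0.14 in NTG arrays. It was thus lower than NTG by a similar amount in both lines (differences of -0.51 and -0.52), and the lines overlapped. The fetal side differed from NTG by 0.49 in TM180 and 0.16 in TM175. The TM175 value depended on the brightest probe sets (0.05 for Slc2a1, 0.21 for Hk1 and 0.22 for Pfkp). In TM175 the other probe sets of these genes were all below NTG (Slc2a1 -0.32 and -0.12, Hk1 -0.28, Pfkp -0.15). In TM180 those other probe sets were above NTG (0.06, 0.27, 0.19 and 0.27).
Leaving out each of the 7 genes in turn gave differences from NTG of 0.81 (without Pfkp) to 1.16 (without Slc2a1) in TM180. In TM175 they were 0.61 (without Slc2a4) to 0.76 (without Pfkm). The index holds the 3 genes called in TM180, and its members were chosen with earlier results known. Leaving out 1 gene keeps others of those 3, so the TM180 shift of the index is not a separate result. Averaging all probe sets of a gene in place of the brightest gave 0.81 in TM180 and 0.42 in TM175, and every array of either line still lay above NTG.

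By pair, Pfkp relative to Pfkm was higher than in NTG in all arrays of either line, by 0.98 in TM180 and 0.51 in TM175 on the log2 scale. Slc2a1 relative to Slc2a4 was higher by 0.82 in TM180, where 1 heart overlapped NTG, and by 0.78 in TM175, where the arrays did not overlap. The TM175 value was 0.42 among single hearts and 1.52 between pools, and 0.49 without the pool. Hk1 relative to Hk2 was higher by 0.70 in TM180 and 0.59 in TM175, and both lines overlapped NTG, since Hk2 varied widely. The TM175 value for that pair was 0.35 without TM175 array 1. The pairs depended on the probe set: with the brightest other probe set of each gene that had one, a choice made after seeing the data, Slc2a1 relative to Slc2a4 differed from NTG by 0.31 in TM180 and -0.09 in TM175, Hk1 relative to Hk2 by 0.46 and 0.10, and Pfkp relative to Pfkm by 0.38 and 0.14. At the step between fructose 6-phosphate and fructose 1,6-bisphosphate, Pfkp relative to Fbp2 was 1.84, 2.37, 2.61 and 2.42 in TM180, 0.98, 1.57 and 1.51 in TM175, and -0.02, 0.80 and 0.56 in NTG arrays. These 3 groups did not overlap, with differences from NTG of 1.86 in TM180 and 0.90 in TM175. This pair was not among the planned ones and set a member found higher in TM180 against one found lower. Its separation in TM180 is therefore not a separate result. The pair used Pfkp 1416069_at, and the other Pfkp probe set differed from NTG by 0.27 in TM180 and -0.15 in TM175.

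**Figure D3:**
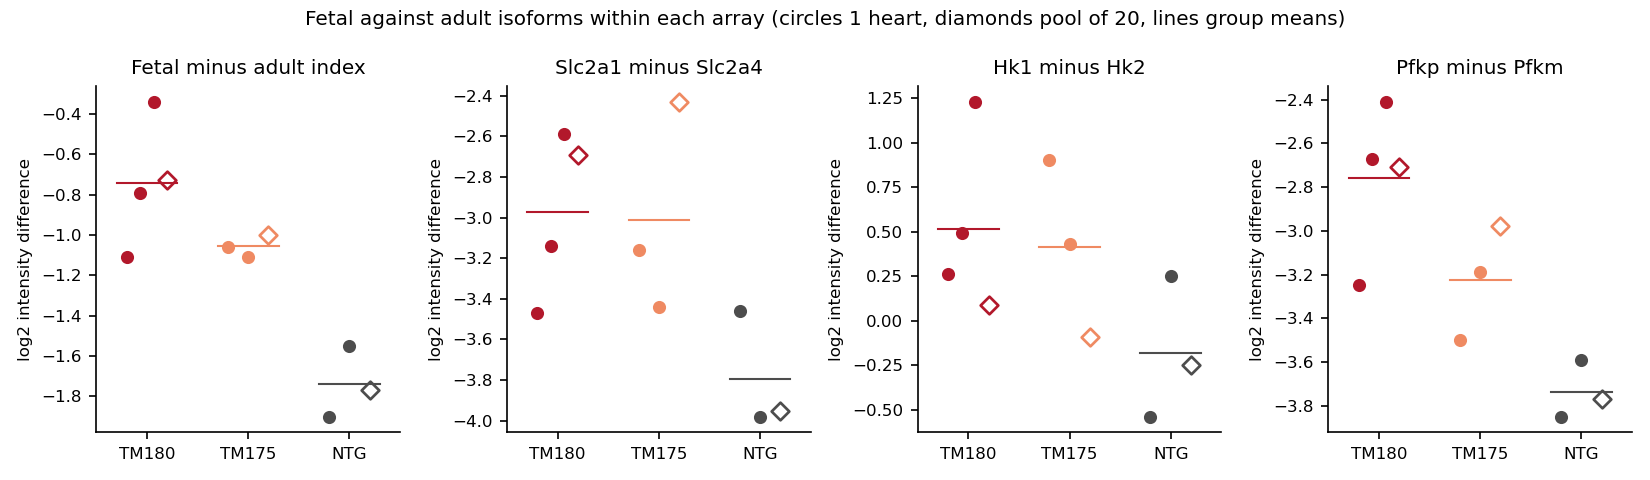
Log2 intensity differences within each array for the fetal minus adult isoform index and for the 3 isoform pairs, with TM180, TM175 and NTG from left to right, circles for 1 heart, diamonds for pools and lines at group means. In the index all arrays of both lines (-1.11 to -0.34) lie above the NTG arrays (-1.9 to -1.55), while for Hk1 minus Hk2 the groups overlap.

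Around these steps, 7 lists of further glucose genes held 93 genes, of which 73 were measured by a probe set of their own. In TM180 against NTG 1 of 73 was called without extract type, beside 0.504% of all probe sets, and 3 of 73 with it, beside 2.01%. In TM175 it was 0 of 73 without and 2 of 73 with extract type, beside 0.00884% and 0.862%. Between the lines it was 0 of 73 in either limma fit. An unadjusted p under 0.05 was reached by 14 of 73 genes in TM180 against NTG, 13 in TM175 against NTG and 9 between the lines, beside 9.34%, 13.0% and 13.3% of all probe sets.
In the rest of glycolysis, with 13 of 17 genes measured, Eno2, the neuronal type of enolase, rose in TM180. It read 32.9, 38.9, 32.7 and 30.6 in TM180, 25.7, 26.2 and 24.9 in TM175, and 23.9, 24.3 and 21.0 in NTG arrays, so that every TM180 array was higher than all others. These are dim readings, below the array medians of 66.6 to 71.0. The log2 difference between TM180 and NTG was 0.55 (limma adjusted p 0.049, with extract type 0.0107), and between TM180 and TM175 it was 0.39 (adjusted p 0.302). Eno3, the muscle enolase, averaged 4155 ± 369 in TM180, 4183 ± 382 in TM175 and 5076 ± 168 in NTG arrays (SD, n = 4, 3 and 3). All arrays of either line lay below NTG, and neither difference passed (adjusted p 0.324 in TM180 and 0.316 in TM175). The lactate and pyruvate carrier Slc16a1 differed from NTG by -0.39 in TM175 (adjusted p 0.371), and the muscle phosphoglycerate mutase Pgam2 by 0.16 between TM180 and TM175 (0.446). The list's median log2 difference was 0.02 in TM180 and -0.10 in TM175.

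Among genes of glycogen synthesis and breakdown, 13 of 16 were measured. Their median log2 difference from NTG was -0.13 in TM180 and -0.39 in TM175, beside -0.01 and 0.04 over all probe sets. In TM180 9 of 13 were below 0 and 4 above, and in TM175 10 were below and 3 above. Phkg1, the muscle catalytic subunit of phosphorylase kinase, fell in TM180 with extract type in the model (19.46 ± 2.76 in TM180 and 29.76 ± 4.45 in NTG, SD, n = 4 and 3; log2 difference -0.63, adjusted p 0.0156; without extract type 0.082). Its regulatory subunit Phkb fell in TM175 with extract type, at 115.8 ± 15.3 in TM175 and 195.4 ± 37.6 in NTG arrays (log2 difference -0.74, adjusted p 0.043; without extract type 0.177). The lysosomal glucosidase Gaa did so too, at 271.6 ± 32.5 in TM175 and 419 ± 81.3 in NTG arrays (-0.61, adjusted p 0.0427; without extract type 0.207). Neither TM175 call held when TM175 array 1 was left out of the fit with extract type: Phkb differed by -0.81 (adjusted p 0.0784) and Gaa by -0.59 (0.102). Between TM180 and TM175 Phkb differed by 0.61 and Gaa by 0.50 (adjusted p 0.302 and 0.306). The Phkg1 call in TM180 stayed at 0.0160 without that array. Phkg1 was dim, with all readings below the array medians of 66.6 to 71.0.
Of 15 transcription factors known to act on glucose genes, all were measured. Klf15, a factor that in mice drives Slc2a4 expression in muscle, read 190.0, 122.9, 148.9 and 132.4 in TM180, 147.4, 172.5 and 134.3 in TM175, and 239.7, 203.9 and 250.4 in NTG arrays. All arrays of either line were below all NTG arrays. It fell in TM180 with extract type in the model (log2 difference -0.66, adjusted p 0.0405), and not without it (-0.65, 0.112). In TM175 the difference was -0.61 (adjusted p 0.203, with extract type 0.0732). Hif1a, the hypoxia-inducible factor, averaged 306.2 ± 46.4 in TM180, 235.9 ± 2.71 in TM175 and 221.8 ± 12.4 in NTG arrays (SD, n = 4, 3 and 3). All TM180 arrays lay above the others, but neither TM180 against NTG (log2 difference 0.45; adjusted p 0.151, with extract type 0.0698) nor TM180 against TM175 (0.36; adjusted p 0.306) passed. Mlxip, which encodes the glucose-sensing factor MondoA, differed from NTG by -0.45 in TM175 (adjusted p 0.284), and Myc by 0.17 between TM180 and TM175 (0.442).

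In the remaining 4 lists no gene was called in TM180 or TM175 against NTG in either fit. Of 7 other sugar transporters and hexokinases 4 were measured, and the smallest adjusted p belonged to Slc2a8 in TM175 (208.2 ± 5.7 in TM175 and 254.8 ± 10.3 in NTG, SD, n = 3 each; 0.256). Slc2a8 differed from NTG by -0.14 in TM180 (adjusted p 0.76), Slc2a10 by 0.07 in TM180 (0.994) and Hkdc1 by 0.21 in TM175 (0.448), on the log2 scale. Between TM180 and TM175 Slc2a3 differed by -0.28 (0.418) and Slc2a8 by 0.15 (0.460). Of 6 genes of fructose 2,6-bisphosphate and fructose bisphosphatase 3 were measured; Pfkfb2, the cardiac enzyme that makes the phosphofructokinase activator fructose 2,6-bisphosphate, averaged 81.15 ± 1.84 in TM180, 100.5 ± 12.8 in TM175 and 102.8 ± 16.6 in NTG arrays. Pfkfb2 arrays of TM180 lay below those of both other groups, but the adjusted p was 0.375 against NTG and 0.357 against TM175. Pfkfb3 differed from NTG by -0.07 in TM180 and -0.06 in TM175 (0.986 and 0.869), and Fbp1, the liver fructose bisphosphatase, by 0.18 in TM175 (0.638) and by -0.20 between TM180 and TM175 (0.530). Of 12 genes of the pentose phosphate and hexosamine branches 10 were measured, with Pgd, of the oxidative pentose phosphate branch, at 299.4 ± 14.7 in TM180, 226.9 ± 54.9 in TM175 and 230 ± 27.5 in NTG arrays (adjusted p 0.448 against NTG and 0.332 against TM175). Of the hexosamine enzymes, Gfpt2 differed from NTG by 0.19 in TM180 and 0.33 in TM175 (0.732 and 0.313), Gfpt1 by 0.25 in TM175 (0.402), and Uap1 by 0.32 between TM180 and TM175 (0.367). Of 20 genes by which insulin and AMPK act on GLUT4, 15 were measured, and their median log2 difference from NTG was -0.01 in TM180 and -0.15 in TM175. The genes with the smallest p were Pik3r1 and Akt1 in TM180 against NTG (-0.66 and -0.22; adjusted p 0.478 and 0.641), Rab10 and Akt2 in TM175 against NTG (-0.29 and -0.37; 0.380 and 0.401), and Prkag2 and Rab10 between TM180 and TM175 (0.35 and 0.22; 0.329 and 0.441).

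**Figure D4:**
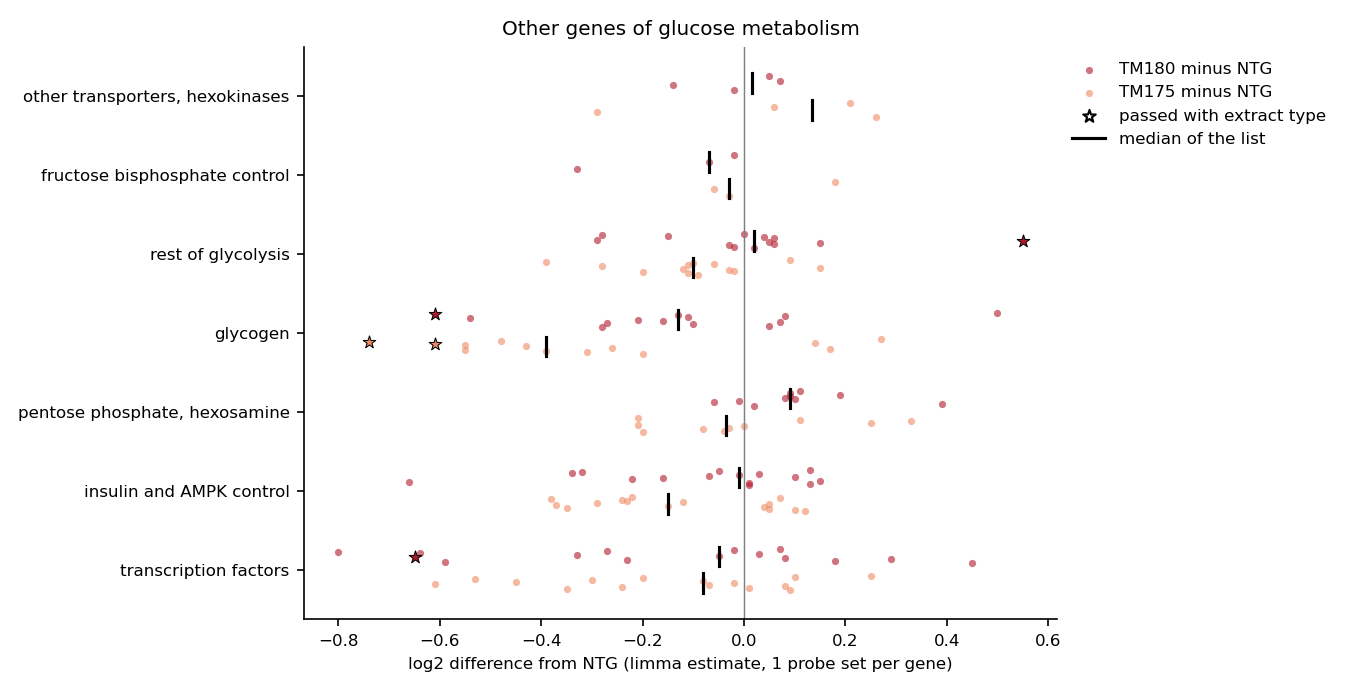
Log2 difference from NTG of each measured gene in the 7 lists of further glucose genes, 1 point per gene, for TM180 (dark) and TM175 (light), with a bar at each list's median and stars for genes called with extract type in the model. The called genes are Eno2 above 0 and Phkg1 and Klf15 below 0 in TM180, and Phkb and Gaa below 0 in TM175, whose calls did not hold without TM175 array 1.

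These are whole ventricles, in which fewer cells of a type and less RNA per cell cannot be told apart. Of 10 fibroblast markers all were measured and 3 rose in TM180 (5 with extract type), beside 0.371% and 1.47% of all probe sets. Postn was among them, at 1046 ± 197 in TM180 and 205.7 ± 28.8 in NTG arrays (SD, n = 4 and 3). In TM175 Postn was the 1 marker that rose in either fit, beside 0.00884% and 0.862% of all probe sets called in either direction. The summed intensity of the 10 was 8679 to 13285 in TM180, 6925 to 10718 in TM175 and 4843 to 7256 in NTG arrays. None of the 10 smooth muscle and pericyte markers was called in TM180 against NTG in either fit. An unadjusted limma p under 0.05 was reached there by 3 of them, beside 9.34% of all probe sets. They summed to 7995 to 10169 in TM180, 6105 to 7718 in TM175 and 6971 to 7201 in NTG arrays, and such a sum follows its brightest markers. Both sums were higher in every TM180 array than in every NTG array, as were Hk1 1437974_a_at and Pfkp 1416069_at, and their part in those results was not tested. Of 10 cardiomyocyte markers none was called by limma, and 1 had an unadjusted p under 0.05 in each line against NTG. These were Mybpc3 in TM180 (log2 difference 0.29) and Ryr2 in TM175 (-0.27). The 10 markers summed to 51173 to 55315 in TM180, 51327 to 54259 in TM175 and 53781 to 57510 in NTG arrays. Actc1 and Mybpc3 entered at their deposited values (means of 8.165 and 6.779 in TM180) because their scale could not be settled. They thus added almost nothing to the sums. None of the 10 endothelial markers was called, while 2 in TM180 and 1 in TM175 had an unadjusted p under 0.05 against NTG, and their sums were 3432 to 4221 in TM180, 3216 to 4779 in TM175 and 3294 to 3680 in NTG arrays.

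After the mean of each extract type was subtracted, the probe sets most like the 3 called members across the 10 arrays were ranked by Pearson correlation, as a description. Pfkp 1416069_at was most like Serf2 and Timp1 (r = 0.985 each), Nupr1 (0.964) and Nars (0.963). Timp1, a metalloproteinase inhibitor, differed from NTG by 1.05 in TM180 and 0.21 in TM175 on the log2 scale, and Pfkp by 0.87 and 0.22. Hk1 1437974_a_at was most like the growth factor gene Tgfb3 (0.957), Gpatch4 (0.956), Hs2st1 (0.945) and Ptn (0.943). Fbp2 was most like Vps39 (0.953), Tnfaip8 (0.948), Dsg2 (0.941) and Sirt4 (0.937), of which Tnfaip8 differed from NTG by -1.04 in TM180 and -0.78 in TM175. The 10 arrays share 3 genotypes, which alone can raise r between genes that differ between them.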

How the data were processed

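Ventricular RNA was biotin labelled and hybridised to Affymetrix arrays, per the labels' protocols. The deposited table holds linear probe set intensities made by the authors with RMA, per the submitters' processing notes; its version is not given in the sources used here. Intensities of 1000 or more had been written with a point before the last 3 digits. This was undone for 7844 values in 1057 probe sets; 225 of the tested probe sets could not be settled and kept their values, none of them a member. The fixed design had not foreseen this step. Control probe sets (64) were set aside. Symbols came from the platform annotation, and positions and promoters from RefSeq GRCm38.p6.

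Log2 intensities were fitted with limma 3.58.1 in R 4.3.3 (lmFit, eBayes), 1 mean per genotype, all 10 arrays, with two-sided tests and Benjamini-Hochberg adjustment over 22626 probe sets. Extract type was the main alternative. The scripts were tested on simulated data. Python 3.11.15 with pandas 2.3.3, numpy 2.4.6 and matplotlib 3.10.9 served for the rest. Members, lists and alternatives were chosen with earlier results of these data known. List genes were represented by their brightest probe set. From each list and comparison the text names the genes called in either fit, otherwise the 2 with the smallest p; other comparisons of a named gene are given for context. Replicate numbers were not taken to pair samples. Deviations of same-numbered arrays correlated at -0.534 to 0.707. Replicate 3 was a pool in TM175 and NTG and a single heart in TM180, so these values cannot show whether samples were paired. The replicate block setting is for the same reason partly a contrast of extract types. P-values measure the spread among single hearts and pools, and the number of arrays limits the precision.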

Additional observations from a re-analysis of the deposited data

Results flagged for a closer look

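For the dimmer Pfkp probe set, 1430634_a_at, the single hearts and the pools pointed in opposite directions in TM175 against NTG. The log2 difference was 0.19 among single hearts (51.1 and 64.3 in TM175, 49.95 and 50.2 in NTG) and -0.84 between the pools (44.7 in TM175 and 80.1 in NTG). The difference between the extract types was not tested, with 1 pool per genotype. In the 14 sets of 4 TM180 arrays, 1 for each member probe set, no array stood apart by Dixon's criterion, for which the critical value is 0.829.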

How the results depend on the processing

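Over 21 settings, 809 of 879 refitted member differences kept their direction and side of the threshold, 14 newly passed, 29 no longer passed and 27 changed sign. Nearly all of the 809 were differences that had not passed at first and still did not. The 29 that no longer passed were all refits of the 2 calls in TM180 against NTG, which were thus lost in most settings. In TM180 against NTG the 2 member calls became 0 with single hearts only, with the replicate block or with only those groups, 1 with renewed quantile normalization (Fbp2), median centring (Hk1) or an intensity trend (Fbp2), and 0 to 1 when 1 array was left out. Calls over all probe sets there were 114, against 454 with extract type, 484 with extract type and without TM175 array 1, 44 with single hearts only, 32 with the replicate block, 55 with only those groups, 754 with array weights and 8 to 135 with 1 array left out. In TM175 against NTG the 2 calls became 195 with extract type, 14 with extract type and without TM175 array 1, 1 with the replicate block or median centring, 0 with only those groups, 5361 with array weights and 1 to 2 with 1 array left out. Between the lines 0 became 6 with extract type, 2341 with array weights and 0 to 1 with 1 array left out. Array weights called 5 member probe sets in TM175 against NTG and 3 between the lines. Pathway genes called went to 3 in TM180 and 2 in TM175 with extract type, against 1 and 0. The isoform index for TM175 was 0.42 over all probe sets, against 0.68, and Slc2a1 relative to Slc2a4 in TM175 was -0.09 with the genes' other probe sets, a setting chosen after seeing the data, against 0.78.

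Signs that turned were of small differences (log2, value in the fit as reported first). For TM175 against NTG: Pfkp 1430634_a_at -0.15, against 0.19 (single hearts), 0.16 (array weights) and -0.29 to 0.08 (1 array left out); Pfkl 1450269_a_at -0.17, against 0.09 (array weights) and -0.38 to 0.08; Slc2a1 1426600_at 0.05, against -0.03 to 0.15; and Slc2a1 1434773_a_at -0.12, against -0.39 to 0.06. For TM180 against NTG: Slc2a1 1426599_a_at 0.06, against -0.01 (array weights), and Pfkl 1439148_a_at 0.09, against -0.02 to 0.18. For TM180 against TM175: Slc2a1 1426600_at 0.12, against -0.00 (single hearts); Slc2a4 1415958_at -0.02, against 0.00 (single hearts), 0.01 (replicate block, median centring) and -0.09 to 0.06; Slc2a4 1415959_at 0.08, against -0.24 (single hearts), -0.07 (quantile), -0.15 (array weights) and -0.31 to 0.37; and Hk2 0.12, against -0.02 (replicate block), -0.04 (quantile) and -0.09 to 0.35. The cause was not tested.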
